A study of Homo sapiens with 6 samples.

Results

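Receptor tyrosine kinases outside the EGFR family were described in PANC-1 cells, an established human pancreatic ductal carcinoma line, after transfection of CD73 siRNA or negative control siRNA. The genes were a list of 45 symbols given by name, under a rule that uses no measured value but chosen with earlier results of these data known. They were matched to the Ensembl gene IDs of the expression tables. Of these, 44 were found among the 30735 genes of the tables, and NTRK3 was not analysed here. CD73 is the cell surface enzyme that makes adenosine from AMP and is encoded by NT5E. The comparison asked which of these receptors PANC-1 cells transcribe and whether their mRNA differed when CD73 was knocked down. The CD73 siRNA group and the negative control group had 3 samples each, numbered 1 to 3. Cells of both groups were kept in DMEM with fetal bovine serum, transfected with Lipofectamine 3000 in 6-well plates without serum, and sequenced as total RNA isolated with a miRNeasy column. Neither the siRNA sequences nor the hours between transfection and harvest were used here. All samples came from a single cell line, and p-values measure the spread between these samples only, which may be partly technical.

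Most of the listed receptor tyrosine kinases are membrane proteins with an extracellular ligand-binding part, a single membrane-spanning helix and an intracellular kinase domain. Ligand binding brings receptors together, they phosphorylate each other on tyrosines, and adaptor proteins that dock there pass the signal to RAS and ERK, PI3K and AKT, and phospholipase C gamma. A few members, among them PTK7, RYK, EPHB6 and STYK1, carry a kinase domain with little or no known catalytic activity. MET and AXL are studied in pancreatic carcinoma as receptors of invasive cells, and EPHA2 is abundant in many carcinomas.

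The targeted gene came first as a check of the labels. NT5E was at 3.36, 6.85 and 8.22 RPKM (reads normalized to exon length and to the library total) in CD73 siRNA samples 1, 2 and 3, and at 14.0, 13.9 and 17.1 RPKM in controls 1, 2 and 3. The groups did not overlap, the siRNA mean was 41.0% of the control mean, and the log2 fold change was -1.23 with a standard error of 0.26, past the threshold used here, an unadjusted limma p of 0.01 (adjusted p = 0.303). Library totals, derived from the steps between low values, ranged from 15009120 to 16836207 reads. Among the markers of ductal epithelium, SOX9 and the keratins KRT8 and KRT18 were each above 30 RPKM in every sample, KRT19 was at 3.59 to 5.39 RPKM, and KRT7 was at or under 0.107 RPKM. The 8 ductal markers summed to 126 to 160 RPKM after CD73 siRNA and to 190 to 301 RPKM in the controls, with KRT8 and KRT18 lower past the limma threshold (both adjusted p = 0.303). SOX9 of the same list had the opposite sign, at 53.6 to 55.5 RPKM after CD73 siRNA and 45.4 to 51.8 RPKM in the controls, a log2 fold change of 0.20 that did not pass (limma, adjusted p = 0.438). EPCAM (0.582 to 1.71 RPKM) and MUC1 (1.44 to 2.71 RPKM) also had log2 fold changes above 0, of 0.03 and 0.08. CDH1 (0.421 to 1.69 RPKM) and KRT19 had log2 fold changes of -0.12 and -0.26, and none of these passed. Of the leukocyte markers 4 of 5 were found, and they summed to 0.246 RPKM or less, with PTPRC at or under 0.0154 RPKM. The 5 endothelial markers summed to 0.775 to 1.495 RPKM, most of it ESAM, with PECAM1 at or under 0.023 RPKM. The 3 islet markers summed to 0.129 RPKM or less. Of the fibroblast markers 4 of 5 were found, and they summed to 14.3 to 26.2 RPKM after CD73 siRNA and 15.9 to 30.1 RPKM in controls, nearly all COL1A1 and THY1, with COL1A2 at or under 0.0239 RPKM. Whether the keratin difference has a part in the results below was not tested. In RNA from a whole culture, fewer cells transcribing a gene and less RNA per cell cannot be told apart.

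PANC-1 cells transcribed 22 of the 44 receptors at 1 RPKM or more in all 3 controls, and 10 of these at 10 RPKM or more in all 3. Levels between genes are compared per length, as RPKM. EPHA2 stood far above the rest at 199, 166 and 152 RPKM in controls 1, 2 and 3, and made up 44.9% of the summed RPKM of all 44 receptors in the controls. The next highest by control mean were PTK7 (23.0 ± 4.47 RPKM, SD, n = 3), AXL (19.7 ± 8.94), FGFR3 (17.6 ± 2.39), RYK (17.4 ± 1.40), EPHB4 (15.2 ± 2.33), MERTK (15.1 ± 1.40) and IGF1R (13.1 ± 2.14). From PTK7 down to IGF1R, each lay within 1 SD of its neighbours in this order, taking the larger SD of the 2. FGFR1, DDR1 and MET had control means of 12.7, 12.5 and 10.2 RPKM. The lowest that met the rule were ROR2 at 1.55 to 3.13 RPKM in the controls and EPHB3 at 1.32 to 2.39 RPKM. Just outside it, INSR, the insulin receptor, was at 0.799, 0.462 and 1.49 RPKM in controls 1, 2 and 3 and at 0.720, 0.529 and 1.64 RPKM in the siRNA samples. INSR was the only receptor outside the rule that reached 1 RPKM in any sample.

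**Figure D1:**
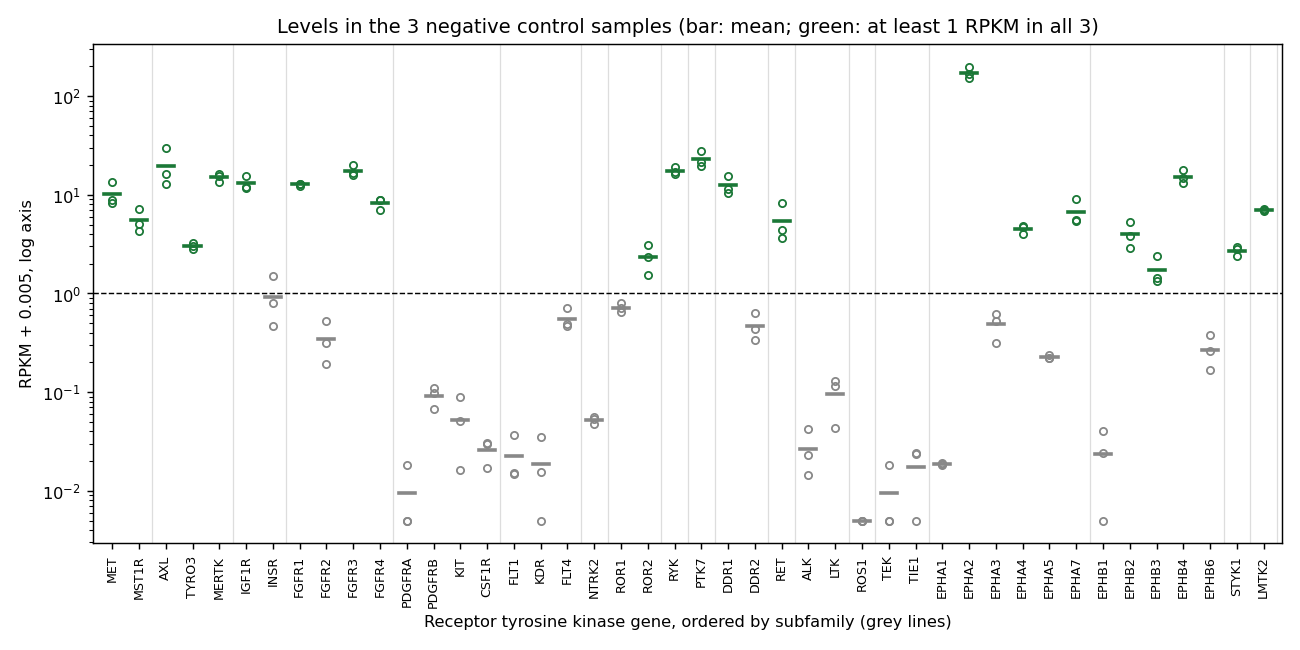
RPKM (plus 0.005 so that values of 0 can be drawn, log axis) of the 44 receptor genes in the 3 negative control samples, 1 point per sample, grouped by subfamily. The 22 green genes were at or above the dashed line at 1 RPKM in all 3 controls; EPHA2 lies highest at 152 to 199 RPKM, and the PDGF, VEGF, TIE, ALK and ROS1 receptors all lie under the line.

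Whole subfamilies were near the floor of the measurement. The PDGF receptor group, PDGFRA, PDGFRB, KIT and CSF1R, which bind PDGFs, stem cell factor and CSF-1 and mark stromal, mast and myeloid cells, did not exceed 0.117 RPKM in any sample. The VEGF receptors FLT1 and KDR, which define endothelium, were at or under 0.032 RPKM, while FLT4, the VEGF-C receptor of lymphatic endothelium, was at 0.251 to 0.708 RPKM. The angiopoietin receptor TEK and its relative TIE1 were at or under 0.0192 RPKM, ALK at or under 0.045 RPKM, LTK at 0.038 to 0.285 RPKM and the neurotrophin receptor NTRK2 at 0.0321 to 0.078 RPKM. ROS1 had a single read in 1 of the 6 libraries. Of the EPH receptors, EPHA3 (0.309 to 0.988 RPKM), EPHA5 (0.216 to 0.259 RPKM) and EPHB6 (0.131 to 0.375 RPKM) were low, and EPHA1 and EPHB1 were at or under 0.105 and 0.036 RPKM. ROR1 (0.577 to 0.794 RPKM), the collagen receptor DDR2 (0.329 to 0.639 RPKM) and FGFR2 (0.184 to 0.519 RPKM) completed the group under the rule. Of the 22 receptors outside the rule, 11 were under 0.1 RPKM in all 6 samples, and none had more than 289 reads in a library. They did not reach 1 RPKM in 3 samples, the filter of the test, so differences between the groups were not tested for them.

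The 22 receptors at 1 RPKM or more in all controls were also those that passed the filter of the test (1 RPKM in at least 3 samples), which 12527 genes passed. FGFR3 was the only receptor past an unadjusted limma p of 0.01, and it was higher after CD73 siRNA. Over all genes tested, 1.82% were past this threshold as higher and 1.31% as lower (3.13% in either direction). No receptor had an adjusted p below 0.05, the smallest being 0.303, and only 1 of all 12527 genes tested did (limma). With the replicate number as a block, 0 of all genes did. Limma with an unadjusted p below 0.05 gave 3 receptors of 22, FGFR3, EPHA2 and MERTK, near the 12.1% of all genes past 0.05. The replicate numbers carried shared variation, and with the number as a block 3 receptors were past 0.01, FGFR3 as higher and EPHA2 and AXL as lower, where 7.57% of all genes were past it. Without the block, 18 of the 22 log2 fold changes were below 0, against 48.0% of all genes, and their median was -0.11, against 0.01 over all genes. The median moved to -0.047 without control 1 and to -0.16 without control 3, so that its size depended on single controls.

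FGFR3, a receptor of fibroblast growth factors, was at 23.4, 23.7 and 27.8 RPKM in CD73 siRNA samples 1, 2 and 3 and at 15.7, 20.3 and 16.7 RPKM in controls 1, 2 and 3. Every siRNA sample lay above every control. The means were 24.9 ± 2.46 and 17.6 ± 2.39 RPKM (SD, n = 3), so FGFR3 rose to 142% of the control. The log2 fold change, on the scale of log2(RPKM + 1) used throughout, was 0.49 with a standard error of 0.13 (unadjusted limma p = 0.00477, adjusted p = 0.303, two-sided exact permutation p = 0.1). An exact test of 3 against 3 samples cannot give less than 0.1. FGFR3 also passed with the block (limma, adjusted p = 0.113). Within numbers 1, 2 and 3 the log2 differences were 0.54, 0.22 and 0.70. The result was past 0.01 with any of siRNA sample 1, siRNA sample 2 or control 2 left out, and was not past it without siRNA sample 3, control 1 or control 3, where the log2 fold change was 0.41, 0.42 and 0.45. The other FGF receptors did not pass: FGFR1, with a control level of 12.7 ± 0.35 RPKM, had a log2 fold change of -0.02 (95% interval -0.25 to 0.21), and FGFR4, at 8.27 ± 1.10 RPKM, one of -0.03 (-0.49 to 0.43).

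EPHA2, the most abundant receptor and a receptor of A-type ephrins on neighbouring cells, was at 126, 145 and 123 RPKM in CD73 siRNA samples 1, 2 and 3 and at 199, 166 and 152 RPKM in controls 1, 2 and 3. All siRNA samples were below all controls, and control 1 was the highest of the 6. The means were 131 ± 11.9 and 172 ± 24.0 RPKM (SD, n = 3), a log2 fold change of -0.39 with a standard error of 0.12 (unadjusted limma p = 0.0146, adjusted p = 0.342, exact permutation p = 0.1). With the block EPHA2 passed the threshold (limma, adjusted p = 0.119), and it did so without the block when control 3 was left out, at a log2 fold change of -0.47. It did not pass with any other sample left out, and the log2 fold change was -0.28 without control 1. Within numbers 1, 2 and 3 EPHA2 differed by -0.66, -0.20 and -0.31 on the log2 scale.

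AXL, a receptor for GAS6, varied most between replicate numbers. It was at 9.04, 20.7 and 9.86 RPKM in CD73 siRNA samples 1, 2 and 3 and at 16.4, 29.8 and 12.9 RPKM in controls 1, 2 and 3. Number 2 was the highest in both groups, so the groups overlapped, yet the siRNA sample was below the control of the same number each time, by -0.79, -0.50 and -0.36 on the log2 scale. The log2 fold change was -0.55 with a standard error of 0.36 without the block (unadjusted limma p = 0.164, adjusted p = 0.563, exact permutation p = 0.3) and of 0.10 with it, where AXL passed the threshold (limma, adjusted p = 0.113). Without the block the value was -0.22 when control 2 was left out and -0.90 when CD73 siRNA sample 2 was left out, with neither past the threshold. Number 2 exceeded the lowest number by 1.07 on the log2 scale, averaged over both groups, more than the siRNA difference.

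FGFR3, EPHA2 and AXL were the receptors past the threshold in either fit, and the 250 bases upstream of their RefSeq start sites (GRCh38.p14) are shown 5′ to 3′ on the strand of the gene to give the sequence context in which these mRNAs begin. Capitals mark GC boxes, GGGCGG on either strand, the core that SP1 binds. They lie at chr4:1793043-1793292 on the forward strand (FGFR3), chr1:16156070-16156319 on the reverse strand (EPHA2) and chr19:41218973-41219222 on the forward strand (AXL, the first of its 2 starts).
FGFR3: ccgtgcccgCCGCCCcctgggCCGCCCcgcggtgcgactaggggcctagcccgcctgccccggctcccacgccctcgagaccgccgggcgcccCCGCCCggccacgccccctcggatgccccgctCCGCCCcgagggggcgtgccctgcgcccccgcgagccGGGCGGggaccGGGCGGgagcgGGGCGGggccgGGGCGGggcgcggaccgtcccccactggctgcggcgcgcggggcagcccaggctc
EPHA2: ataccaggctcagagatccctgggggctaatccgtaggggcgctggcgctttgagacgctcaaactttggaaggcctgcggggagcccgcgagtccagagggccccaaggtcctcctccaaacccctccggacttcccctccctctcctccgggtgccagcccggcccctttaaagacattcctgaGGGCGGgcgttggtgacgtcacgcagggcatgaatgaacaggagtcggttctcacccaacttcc
AXL: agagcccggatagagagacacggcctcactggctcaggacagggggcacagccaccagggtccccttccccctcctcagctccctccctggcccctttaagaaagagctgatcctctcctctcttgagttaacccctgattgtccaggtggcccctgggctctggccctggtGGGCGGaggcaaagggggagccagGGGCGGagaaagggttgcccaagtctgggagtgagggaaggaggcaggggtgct
The FGFR3 stretch was 86.8% G and C and held 8 GC boxes, that of EPHA2 63.2% with 1 box, and that of AXL 64.4% with 2. A GC box was found in 19 of the 20 expressed receptors that matched the table of starts (FGFR1 and STYK1 had no entry used here), in 69.8% of 9091 promoters of genes tested and in 42.3% of all 27305 promoters. The AP-1 motif TGANTCA was in 1 of the 20, against 3.3% of promoters of genes tested and 6.6% of all. The TEAD motif GGAATG was in 1 of the 20, EPHA2, against 9.0% and 11.9%. These counts over receptors use the first start listed for each gene, and the second AXL start (chr19:41226505-41226754) held 1 TEAD motif and no GC box. Both strands were searched, the motifs shared no bases in these windows, and a match describes letters, not binding. In GENCODE release 29 (GRCh38) FGFR3 spans chr4:1793293-1808872, EPHA2 chr1:16124337-16156087 and AXL chr19:41219203-41261766.

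**Figure D2:**
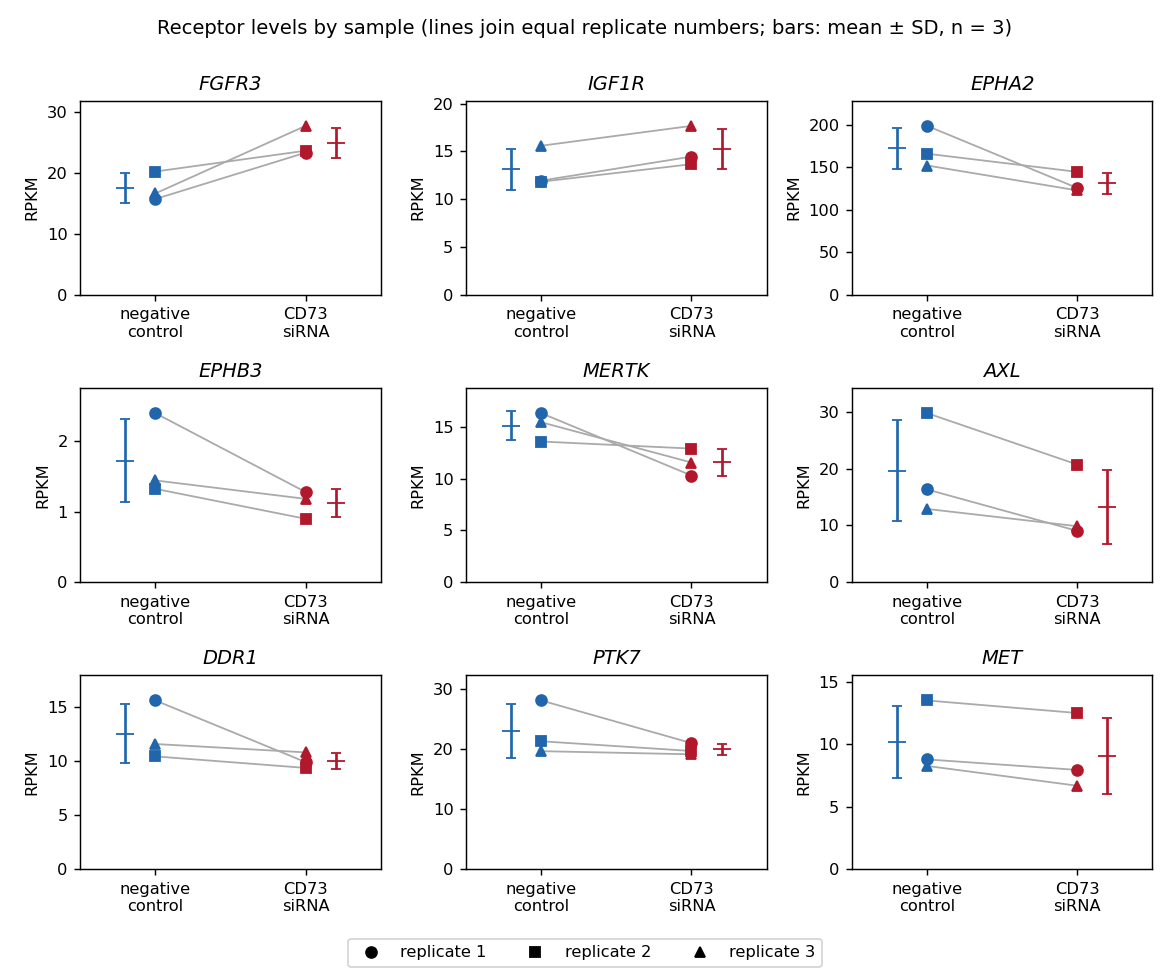
RPKM of 9 receptors in each sample, negative control on the left and CD73 siRNA on the right of each panel, with lines joining samples of the same replicate number and the mean ± SD (n = 3) beside them; each panel has its own axis. The 3 FGFR3 lines go up and the groups do not overlap, the 3 EPHA2 lines go down without overlap, and the 3 AXL lines also go down, with overlap, from starting points of 12.9 to 29.8 RPKM.

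The other TAM receptors, which bind GAS6 and protein S, were MERTK and TYRO3. MERTK was at 10.3, 12.9 and 11.6 RPKM in CD73 siRNA samples 1, 2 and 3 and at 16.3, 13.6 and 15.4 RPKM in controls 1, 2 and 3. The groups did not overlap, with number 2 the closest pair. Its log2 fold change of -0.36 with a standard error of 0.12 did not pass the threshold (unadjusted limma p = 0.0170, adjusted p = 0.347, exact permutation p = 0.1), nor did it with the block (adjusted p = 0.156). TYRO3, at 2.29 to 3.65 RPKM, had a log2 fold change of -0.05 (95% interval -0.40 to 0.29), and its siRNA sample was below the control in numbers 1 and 2 and above it in number 3.

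Among the EPHB receptors, which bind B-type ephrins, EPHB3 was at 1.28, 0.897 and 1.180 RPKM in CD73 siRNA samples 1, 2 and 3 and at 2.39, 1.32 and 1.44 RPKM in controls 1, 2 and 3. The groups did not overlap, but the values rested on 64 to 174 reads, and the log2 fold change was -0.34 (limma, adjusted p = 0.478, and adjusted p = 0.192 with the block). EPHB4 was at 14.9, 13.7 and 13.0 RPKM after CD73 siRNA and 17.7, 14.7 and 13.1 RPKM in the controls, a log2 fold change of -0.11 (95% interval -0.41 to 0.18). EPHB2 (2.67 to 5.36 RPKM) and EPHA4 (2.95 to 4.78 RPKM) had log2 fold changes of -0.23 and -0.20, neither past the threshold. EPHA7 was the only one of the 6 tested EPH receptors with the opposite sign, at 7.91, 6.04 and 10.3 RPKM after CD73 siRNA and 5.47, 5.60 and 9.02 RPKM in the controls, with a log2 fold change of 0.24 (limma, adjusted p = 0.688).

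MET, the receptor of hepatocyte growth factor, was at 7.94, 12.5 and 6.68 RPKM in CD73 siRNA samples 1, 2 and 3 and at 8.79, 13.5 and 8.26 RPKM in controls 1, 2 and 3. Number 2 was the highest in both groups, and each siRNA sample lay slightly below its control, by -0.13, -0.10 and -0.27 on the log2 scale. The log2 fold change was -0.17, with a 95% interval without the block of -0.72 to 0.39 that covers both a fall and a rise. With the block the standard error was 0.083 in place of 0.24, and MET did not pass (limma, adjusted p = 0.273). Its relative MST1R, the receptor of macrophage-stimulating protein, was at 5.28, 7.52 and 6.14 RPKM after CD73 siRNA and 4.29, 7.22 and 5.10 RPKM in the controls (log2 fold change 0.18, limma, adjusted p = 0.730). IGF1R, the insulin-like growth factor receptor, was at 14.4, 13.7 and 17.7 RPKM after CD73 siRNA and 11.9, 11.8 and 15.6 RPKM in the controls. It was higher in each number, by 0.26, 0.19 and 0.17 on the log2 scale, with a log2 fold change of 0.21 that did not pass the threshold (limma, adjusted p = 0.589, and adjusted p = 0.184 with the block).

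Of the receptors linked to Wnt signalling, PTK7, which acts in planar cell polarity, was at 21.0, 19.7 and 19.1 RPKM in CD73 siRNA samples 1, 2 and 3 and at 28.1, 21.3 and 19.7 RPKM in controls 1, 2 and 3. Control 1 stood apart, and control 3 lay among the siRNA samples, with a log2 fold change of -0.18 (limma, adjusted p = 0.622) that was -0.037 without control 1. RYK was at 16.6, 18.9 and 15.6 RPKM after CD73 siRNA and 16.3, 19.0 and 16.8 RPKM in the controls, a log2 fold change of -0.03 (95% interval -0.29 to 0.23). ROR2 followed the replicate number, at 1.53 and 1.55 RPKM in both samples numbered 2 and 3.38 and 3.13 RPKM in both numbered 3. DDR1, a collagen receptor, was at 9.88, 9.35 and 10.8 RPKM after CD73 siRNA and 15.6, 10.4 and 11.5 RPKM in the controls. Its siRNA sample was below the control in every number, with a log2 fold change of -0.28 that did not pass the threshold (limma, adjusted p = 0.485). RET, the receptor of GDNF family ligands, ranged from 3.11 to 8.32 RPKM, with log2 differences of -0.39, -0.18 and 0.24 in numbers 1, 2 and 3. The pseudokinase STYK1 (2.30 to 2.93 RPKM) and LMTK2 (5.70 to 7.15 RPKM) had log2 fold changes of -0.06 and -0.11.

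Within replicate numbers, 11 of the 22 receptors were lower after CD73 siRNA in all 3 numbers, against 24.5% of all genes tested, and 4 were higher in all 3 (FGFR3, EPHA7, IGF1R and MST1R), against 27.0%. The other 7 did not keep one direction. Groups without overlap were seen in 4 of the 22, EPHA2, MERTK and EPHB3 as lower and FGFR3 as higher, where 18.4% of all genes had such groups. The numbers did not contribute alike. The median log2 difference of the 22 was -0.23 in number 1, with 17 of them lower, -0.08 in number 2, with 18 lower, and -0.03 in number 3, with 12 lower. The medians of all genes tested in the same numbers were 0.02, 0.00 and 0.01. For 19 of the 22 the range over the numbers, averaged over both groups, was larger than the siRNA difference, and 7, 8 and 7 receptors were highest in numbers 1, 2 and 3. A range over 3 numbers and a difference between 2 group means are unlike measures. The same count over all genes was not made, so the 19 is a description only.

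**Figure D3:**
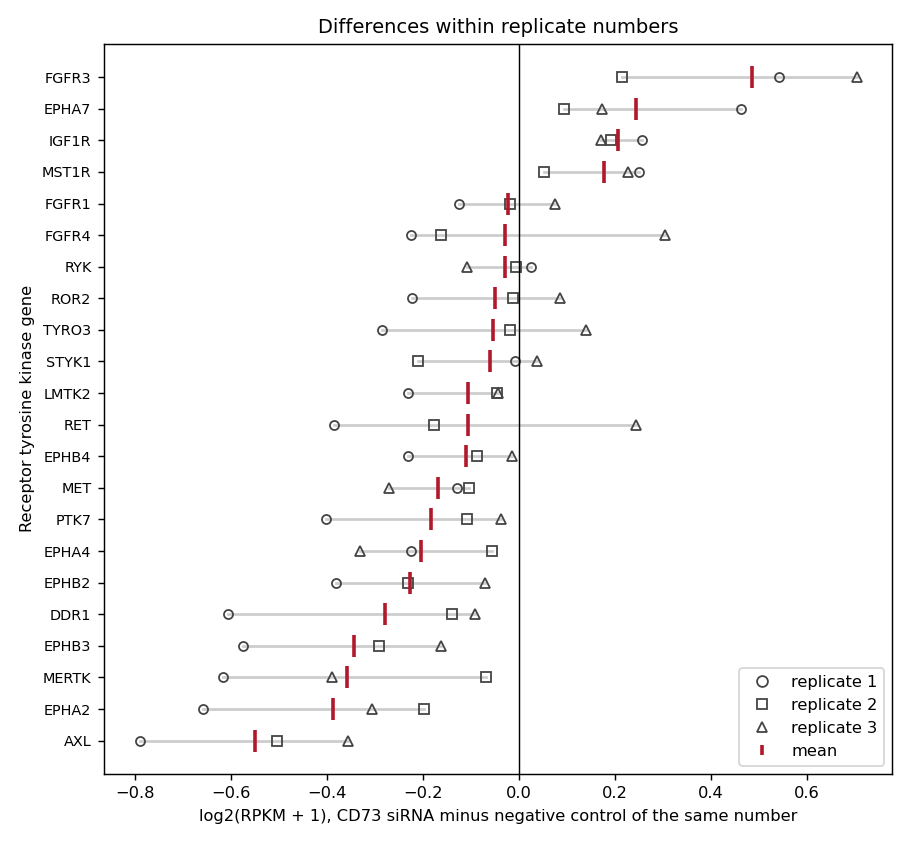
Difference between the CD73 siRNA and the negative control sample of the same replicate number in log2(RPKM + 1) for the 22 expressed receptors, 1 symbol per number and a bar for the mean of the 3. FGFR3, EPHA7, IGF1R and MST1R lie above 0 in all 3 numbers, 11 receptors lie below 0 in all 3, and number 1 lies furthest from 0 for many of them.

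**Figure D4:**
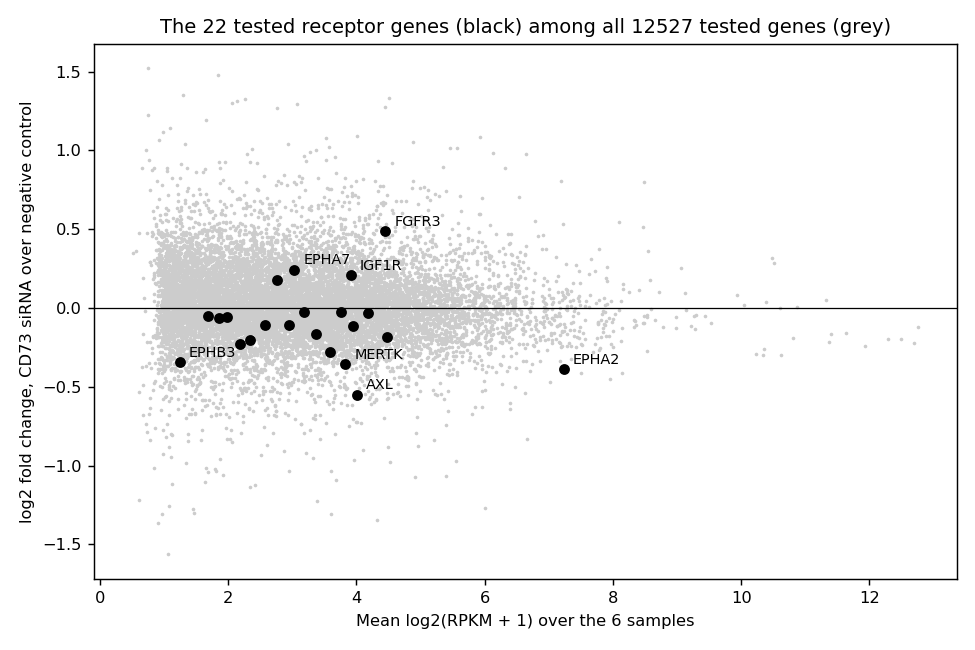
Log2 fold change of CD73 siRNA against negative control (vertical axis) by mean log2(RPKM + 1) over the 6 samples (horizontal axis) for 12527 genes in grey and the 22 expressed receptors in black. The receptors lie between -0.55 (AXL) and 0.49 (FGFR3), 18 of them below 0, inside the cloud of all genes.

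Ligands of these receptors were read from a list of 49 genes, of which 47 were found and 21 tested. A single one passed the threshold, CSF1, as lower (1.31% of all genes), and none passed as higher (1.82%). Of the 21 log2 fold changes 15 were below 0, against 48.0% of all genes, and their median was -0.09, against 0.01 over all genes. CSF1, the growth factor of macrophages, was at 11.7, 19.7 and 16.6 RPKM in CD73 siRNA samples 1, 2 and 3 and at 41.0, 23.8 and 26.8 RPKM in controls 1, 2 and 3. The groups did not overlap, control 1 was the highest, and CSF1 fell by 0.88 on the log2 scale with a standard error of 0.24 (unadjusted limma p = 0.00579, adjusted p = 0.305, exact permutation p = 0.1). Its receptor CSF1R did not exceed 0.036 RPKM. Groups without overlap were seen in 4 of the 21 ligands tested, where 18.4% of all genes had such groups.

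The A-type ephrin EFNA1, a ligand of EPHA2, was at 5.05, 5.63 and 4.09 RPKM in CD73 siRNA samples 1, 2 and 3 and at 11.3, 6.11 and 8.34 RPKM in controls 1, 2 and 3. The groups did not overlap, and the log2 fold change was -0.67 (limma, adjusted p = 0.321), past the threshold with the block only. The B-type ephrin EFNB1 was at 3.57, 3.47 and 4.12 RPKM after CD73 siRNA and 8.20, 4.003 and 6.63 RPKM in the controls, with a log2 fold change of -0.58 (limma, adjusted p = 0.359), also past it with the block only. Number 2 was the closest pair for both ephrins. With the block, EFNA1 and EFNB1 were the ligands past 0.01, and CSF1 was not, where 7.57% of all genes were past it.

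For the remaining receptors the ligand was often made by the same cells at another level than the receptor. PDGFB, a ligand of the PDGF receptors that were near 0, was the highest ligand at 51.8 to 79.2 RPKM, and PDGFC was at 11.3 to 14.1 RPKM. VEGFB (14.9 to 21.8 RPKM) and VEGFC (10.2 to 15.2 RPKM) were present while FLT1 and KDR were near 0. FLT4, the receptor of VEGF-C, was low but higher than these 2, at 0.251 to 0.708 RPKM. VEGFA was at 4.19, 4.89 and 5.36 RPKM after CD73 siRNA and 3.62, 3.93 and 3.86 RPKM in the controls (log2 fold change 0.27, limma, adjusted p = 0.409). FGF2, a ligand of FGF receptors, was at 12.4 to 24.3 RPKM (log2 fold change -0.17), while FGF1 was at or under 0.051 RPKM. For the TAM receptors, PROS1 was at 9.97 to 14.9 RPKM and GAS6 at 2.15 to 3.10 RPKM, with log2 fold changes of -0.09 and -0.06. HGF, the ligand of MET, was at or under 0.2003 RPKM, MST1, the ligand of MST1R, at 0.526 to 0.944 RPKM, WNT5A at or under 0.369 RPKM and GDNF at or under 0.028 RPKM. IGF2 was at 4.53 to 6.65 RPKM, but 75.0% of its exon length overlaps exons of other genes and its reads cannot be assigned with certainty. IGF1 and FGF10 were not analysed here.

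Proteins that dock to the active receptors or act directly on them were read from a list of 39 genes, all found, of which 34 were tested. PIK3CB and CRK passed the threshold as lower (1.31% of all genes) and none as higher (1.82%), with 17 log2 fold changes above 0, 17 below and a median of 0.00. GAB1, among the 17 below, met the filter through the controls alone and was under 1 RPKM in every siRNA sample. Its sign is therefore tied to the filter and says little by itself. PIK3CB, a catalytic subunit of PI3K, was at 9.75, 12.02 and 11.8 RPKM in CD73 siRNA samples 1, 2 and 3 and at 17.7, 14.9 and 16.4 RPKM in controls 1, 2 and 3. No siRNA sample reached a control, and PIK3CB fell by 0.51 on the log2 scale with a standard error of 0.12 (limma, adjusted p = 0.303). CRK, an SH2 and SH3 adaptor, was at 29.8, 33.0 and 37.3 RPKM after CD73 siRNA and at 43.2, 42.7 and 44.2 RPKM in the controls. Its groups did not overlap either, and it fell by 0.37 with a standard error of 0.11 (limma, adjusted p = 0.305). Its relative CRKL, at 35.9 to 40.5 RPKM, had a log2 fold change of -0.01. Of the 34 genes tested, 7 had groups without overlap, GAB1 among them, near the 18.4% of all genes.

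The log2 fold change furthest from 0 among the 34 was that of PTPN11, which encodes the phosphatase SHP2 and did not pass. It was at 43.8, 46.7 and 50.8 RPKM in CD73 siRNA samples 1, 2 and 3 and at 16.2, 39.5 and 34.3 RPKM in controls 1, 2 and 3. Control 1 stood far below the rest, no siRNA sample overlapped the controls, and the log2 fold change was 0.72 with a standard error of 0.29. Limma gave an unadjusted p of 0.0358 (adjusted p = 0.382). With the block the unadjusted limma p was 0.01001, just over the threshold (adjusted p = 0.132). SH2B1, an adaptor of several receptors, was at 8.01, 9.21 and 9.68 RPKM in CD73 siRNA samples 1, 2 and 3 and at 5.49, 7.79 and 6.58 RPKM in controls 1, 2 and 3. The groups did not overlap, and its log2 fold change of 0.40 passed the threshold with the block only (limma, adjusted p = 0.357 without it). The block left PIK3CB and CRK past 0.01 (limma), against 7.57% of all genes. GRB2 (43.0 to 60.2 RPKM), SHC1 (62.8 to 75.4 RPKM) and SOS1 (12.2 to 16.9 RPKM), common steps from receptor to RAS, did not pass in either fit. Nor did the adaptor IRS1 (10.2 to 11.96 RPKM).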

How the data were processed

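RNA-seq was analysed for 3 PANC-1 samples with CD73 siRNA and 3 with negative control siRNA, grouped by their labels. The authors deposited a normalized value for each of 30735 genes per sample, in a unit read here as RPKM. The unit was inferred: multiplied by exon lengths of GENCODE release 29, 95.1% to 95.2% of values worth under 1000 reads fell on whole multiples (tolerance 0.02) of a step particular to the sample, which also gave library totals of 15009120 to 16836207. The submitters' processing notes name bcl2fastq, Bowtie2 2.2.3, HTSeq 0.6.0 and hg38, while the role of each tool and the annotation are not given in the sources used here. Of the gene IDs, 30603 matched release 29. Since the deposited values are not counts, log2(RPKM + 1) was compared with limma 3.58.1 (trend, R 4.3.3) for the 12527 genes that reached 1 RPKM in 3 or more samples, with Benjamini-Hochberg adjustment over all of them, and a call was an unadjusted p below 0.01. The study gives a p of 0.01 for changed genes, with no statement on adjustment used here. Standard errors and 95% intervals are limma's. A pseudocount understates changes of low genes. Exact permutation tests of 3 against 3 cannot go below 0.1.

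Values in every sample were given for expressed receptors past the threshold, for the 8 highest, for the 5 smallest p-values, and for those with one direction in all 3 numbers and a mean within-number difference of at least 0.3. Others chosen after their values were seen are INSR (the rule's limit), MET, MST1R and EPHA7, and from the other lists VEGFA and PTPN11. Receptors, lists and motifs were chosen with earlier results of these data known. The study describes separate knockdown experiments, and replicate numbers come from the sample titles. Deviations from the group means correlated at 0.20, 0.48 and 0.55 between samples numbered 1, 2 and 3 alike, all above the 0.1 required, so the numbers were taken to pair the samples. The alternatives were another pseudocount, no filter, median-of-ratios scaling, quantile normalization, the replicate block, a p of 0.05, other RPKM limits and each sample left out. Exon overlap between genes was at most 6.8% of the length of a tested receptor, and whether counting used strand is not given in the sources used here. Scripts were tested on simulated data. NTRK3, IGF1, FGF10 and the markers DCN, CD3E, PRSS1, CPA1 and CELA3A (with them the acinar list) were not analysed here.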

Additional observations from a re-analysis of the deposited data

How the results depend on the processing

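NT5E stayed lower past 0.01 under every alternative run, with log2 fold changes of -1.44 to -0.90 when single samples were left out. With the replicate block, 948 genes, 3 receptors and 2 ligands were past it in place of 392, 1 and 1, and EPHA2 and AXL were gained. The block changed no other call of a receptor, and the proximal genes went from 2 to 3 with SH2B1. At a p of 0.05 the counts were 1519 genes, 3 receptors, 4 ligands and 4 proximal genes. Without the filter on low values no ligand passed (0) and the median over receptors, which then included low ones, was -0.03 in place of -0.11. FGFR3 was the sole receptor past 0.01 under the other pseudocount, no filter, median-of-ratios scaling and quantile normalization. Leaving out each sample in turn gave 116 to 792 genes (fewest without CD73 siRNA 1, most without control 2), 0 to 1 receptors, 0 to 3 ligands, 0 to 5 proximal genes and receptor medians of -0.16 to -0.05. Among single receptors these fits gave 113 of 132 values with the direction and call kept, FGFR3 lost in 3, EPHA2 gained in 1, and 15 with the sign turned. The 7 receptors with a turned sign ranged, over all 6 fits, from -0.084 to 0.019 for FGFR1, -0.24 to 0.14 for FGFR4, -0.19 to 0.062 for TYRO3, -0.28 to 0.12 for ROR2, -0.31 to 0.19 for RET, -0.10 to 0.032 for RYK and -0.40 to 0.034 for MET, and the largest turned values of RET, FGFR4, ROR2, TYRO3 and RYK exceeded in size those with all samples. Among receptors that kept their sign the value still moved over 1.5 times, from -0.90 to -0.22 for AXL, -0.39 to -0.12 for DDR1, -0.41 to -0.041 for EPHB2, -0.45 to -0.17 for EPHB3, -0.20 to -0.0010 for EPHB4, -0.28 to -0.037 for PTK7, -0.31 to -0.071 for EPHA4, -0.15 to -0.030 for LMTK2, -0.13 to -0.0088 for STYK1, 0.072 to 0.45 for EPHA7, 0.10 to 0.33 for IGF1R and 0.036 to 0.35 for MST1R. EPHA2 (-0.47 to -0.28) and MERTK (-0.43 to -0.28) also moved over 1.5 times, and FGFR3 moved less, from 0.41 to 0.59. The causes were not tested. Expressed receptors numbered 23 at 0.5 RPKM, 20 at 2 RPKM, 21 with all 6 samples required and 22 with any control left out. Receptors with one direction in all 3 numbers were 15, and 15 or 16 under the 2 alternatives. With 3 samples a group and a median standard error of 0.15, small differences between the groups could not be resolved.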
